A study of Mus musculus with 11 samples.

Results

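Vehicle-treated 4T1 cells were described by the expression level of every gene in the deposited table, with no treatment contrast used to choose them. They are 2 of the 11 RNA-seq samples of the study, and the table holds 24197 gene rows, all of which were examined. The group was taken from its sample titles, which read control, and its values are headed untreated. It is called vehicle here because the methods of the study describe these 4T1 cells as treated with vehicle control. Its level is the mean FPKM (fragments per kilobase of gene length and per M, or mega, reads of a library) of its 2 libraries.

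4T1 is a mouse mammary carcinoma line grown as a monolayer, and the study asked how it responds to an activated form of cyclophosphamide and to type I interferon. Vehicle control cultures were grown in RPMI-1640 medium with serum, received neither drug, antibody nor interferon, and were collected at 72 h. The other groups had 3 libraries each: 4HC (4-hydroperoxy-cyclophosphamide) at 5 uM for 4 h with collection at 72 h, the same 4HC exposure with an anti-IFNAR1 antibody at 10 ug/mL, and IFNβ at 250 U/mL for 4 h, whose sample label places collection 2 h later. All groups share 1 cell line, without tumor stroma or host cells, and each RNA came from 1 well of a plate. The methods of the study describe the replicates as independent cultures, without saying whether they were seeded on separate days.

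Mammary ducts are lined by luminal cells, which carry simple keratins and E-cadherin, around which lie basal myoepithelial cells with stratified keratins, p63 and smooth muscle proteins. Carcinomas of this tissue are commonly sorted by estrogen receptor, progesterone receptor and the HER2 receptor, and carcinoma cells can carry epithelial and mesenchymal genes together. Interferons bind cell surface receptors that signal through JAK kinases and STAT factors, while cGAS with STING and the RIG-I-like receptors sense nucleic acid inside the cell.

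The deposited values have 11 decimals, and the steps between them allowed the whole reads of each library to be recovered for most rows. The values were those of libraries scaled to 35.8 M and 33.7 M reads, called here the deeper and the shallower library. Reads were recovered for 13994 of 14542 rows above 0 (96.2%) and for 9499 of 9815 rows above 1 FPKM (96.8%). Which of them is replicate 1 cannot be told from the table. FPKM are given below as the deposited mean followed by the values in the deeper and the shallower library, and where only the mean is given the library values were not recovered or are left out for brevity. For a gene at 0 in both libraries the limit given is the level that 3 reads over both libraries would have, and for low levels the interval is an exact Poisson interval (95%) on the reads, both of which cover counting error only.

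In vehicle-treated cells 14542 rows (60.1%) had a level above 0, 9815 (40.6%) were above 1 FPKM, 3695 above 10, 308 above 100 and 17 above 1000. Of 20107 protein-coding rows 9188 (45.7%) were above 1 FPKM, against 106 of 1884 long noncoding RNA rows (5.63%). The median was 0.109 FPKM over all rows and 3.20 FPKM over rows above 0. Without ribosomal RNA and small noncoding RNA the rows summed to 212406 FPKM, so that 1 part in 1 M of this sum was 0.212 FPKM. A limit of 1 FPKM is thus stricter here than 1 part in 1 M. The level was concentrated in few genes. The 100 highest rows, 64 of them ribosomal protein genes, held 32.2% of all FPKM once ribosomal RNA and small noncoding RNA rows were left out, and the 10 highest held 7.07%. Counted in reads, which are not divided by length, the 100 rows with most reads held 17.3% and 19.2% of the reads recovered from the deeper and the shallower library.

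Leaving out ribosomal RNA and small noncoding RNA rows, of which Mir5121 lay above all others with 3183 FPKM, the highest rows served the ribosome, translation and iron storage. Rps2, a protein of the small ribosomal subunit, then came first with 1856 FPKM (1673 and 2038). The large subunit genes Rplp1 and Rplp0 followed with 1754 FPKM (1617 and 1891) and 1554 FPKM (1465 and 1644). Tpt1, which encodes the translationally controlled tumor protein, had 1693 FPKM (1633 and 1752), and Eef1a1, the elongation factor that brings aminoacyl-tRNA to the ribosome, had 1667 FPKM (1653 and 1680.3). Lgals1, a secreted galectin that binds galactose-containing glycans, was the highest gene outside ribosomal proteins, translation and their regulators, with 1308 FPKM (1354 and 1261). Ftl1, the ferritin light chain, had 1293 FPKM (1063 and 1522), which put the libraries further apart than for Lgals1. The cyclophilin gene Ppia closed the 25 highest with 846 FPKM (739 and 952).

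A further 16 of the 25 highest were Rpl13, Rps12, Rpl19, Gm15772, Rpl26, Rps27a, Rps18, Rps23, Rpl18, Rps15, Rpl12, Rpsa, Rpl4, Rpl7, Rpl32 and Rpl28, between 855 and 1399 FPKM. Many ribosomal protein genes have processed pseudogene copies, so that reads may be shared or lost between copies, and their order is uncertain. Gm15772 overlaps Rpl26, and both rows resolved to the same 19239 and 21951 reads, so their levels cannot be told apart. Neighbors in this order often lay closer than the libraries: Rps2 and Rplp1 differed by less between genes than each did between libraries.

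48 gene lists were used to describe lineage, receptor, secreted, signaling and housekeeping genes. They held 1122 distinct rows, of which 599 (53.4%) were above 1 FPKM, against 40.6% of all rows, and 258 were at 0. Counts of single lists of protein-coding genes are to be read against the 45.7% of protein-coding rows above 1 FPKM. Lists ran from all members on to none on, with many in between, such as 11 of 19 mesenchymal genes. All 20 common reference genes, 25 of 25 proliferation genes and 19 of 19 NF-kB pathway genes were above 1 FPKM, and 35 of 37 Ras, MAPK and PI3K genes were. At the other end none of 18 interferon ligands, 9 erythroid, 7 adipocyte, 13 liver, muscle and neuron, and 11 germline markers was above 1 FPKM.

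**Figure D1:**
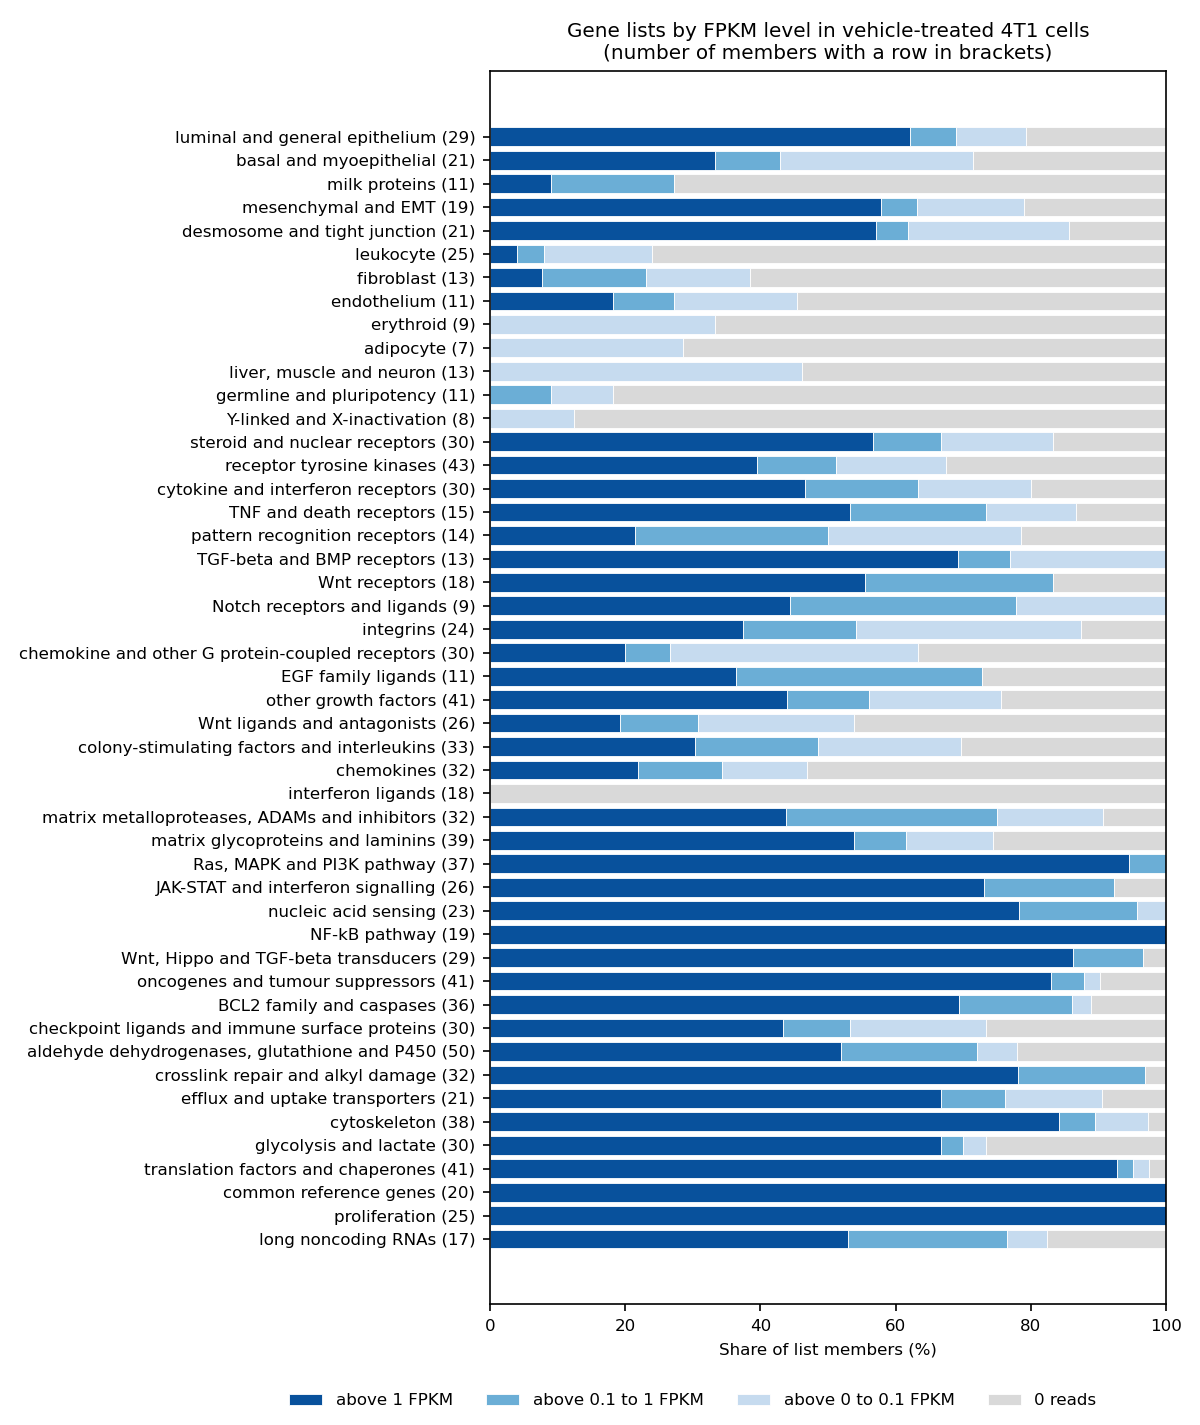
Members of each gene list by FPKM level in vehicle-treated 4T1 cells. Each bar is 1 list, its colors are the share of members (percent) in a range of the deposited mean FPKM; the 20 reference genes lie above 1 FPKM throughout, whereas the 18 interferon ligands are all at 0.

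The luminal and general epithelial markers were expressed in most cases. Of 29 markers 18 were above 1 FPKM, with a median of 6.17 FPKM, and 6 were at 0. Krt18, a keratin of simple epithelia (chr15:101858646-101862457, mm9), was the highest with 88.1 FPKM (74.4 and 102). Its partner Krt8 (chr15:101827141-101834773) had 52.3 FPKM (45.3 and 59.3), and Krt7 (chr15:101242833-101258237), a keratin of glandular ducts, had 83.1 FPKM (73.8 and 92.5). Cdh1, which encodes E-cadherin, the adhesion protein that holds epithelial cells together, had 63.0 FPKM (52.3 and 73.6). The tight junction claudins Cldn4 and Cldn3 had 83.1 FPKM (64.2 and 102) and 37.1 FPKM (27.4 and 46.9). Cd24a, a surface glycoprotein abundant on luminal cells, had 59.8 FPKM (50.3 and 69.3). All 7 of these genes were higher in the shallower library, and the summed level of the list was 489 FPKM in the deeper and 685 FPKM in the shallower library.

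Several luminal regulators and differentiation markers were at 0 in both libraries. These were Elf5, a transcription factor of alveolar differentiation, with a limit of 0.0163 FPKM, Ehf and Spdef, both epithelial ETS factors, the prolactin receptor gene Prlr, the receptor gene Kit and the aldehyde dehydrogenase gene Aldh1a3. Muc1, the mucin of luminal surfaces, had 2 reads over both libraries and 0.0125 FPKM. Among further members, named after their values were seen, Epcam had 19.3 FPKM (13.8 and 24.9), Gata3, a transcription factor of luminal cells, 11.6 FPKM (10.0 and 13.1), and Foxa1, which opens chromatin for steroid receptors, 0.402 FPKM (0.395 and 0.410) with an interval of 0.323 to 0.495. Gata3 was thus expressed well above Foxa1 in both libraries.

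The promoters of some epithelial genes that were on and off can be set side by side. For 6 genes, chosen after their values were seen as the highest luminal keratins and as epithelial genes with and without expression, the bases from 40 to 11 before the annotated start were read from RefSeq sequence (GRCm38.p6), 5′ to 3′ on the gene's strand, with ATAAA and with GGGCGG in either orientation in capitals.
Krt18: ccctacctcctcccgcggcgatataacaac
Krt8: agaggcccttttccctcccctggggctggc
Krt7: tgtgtgcgctcagcctCCGCCCcgcatgga
Epcam: cctccaaagacccATAAAacccaggtgtgg
Krt5: cttctaaggggATAAAaggggacctcaaat
Muc1: ggggactggtATAAAgcagcaggcaccagc
They lie at chr15:102028176-102028205 on the plus strand for Krt18, chr15:102004353-102004382 on the minus strand for Krt8, chr15:101412363-101412392 on the plus strand for Krt7, chr17:87635939-87635968 on the plus strand for Epcam, chr15:101712916-101712945 on the minus strand for Krt5 and chr3:89229016-89229045 on the plus strand for Muc1. ATAAA stood in the window of Krt5, which had no read, of Muc1, which had 2 reads, and of Epcam, which was expressed, and in none of the windows of the highest keratins. The letters ATAAA occurred between 40 and 15 bases before the start in 4.84% of the 16070 promoters matched to a protein-coding row. They stood in 2 of 18 matched luminal promoters, 1 of 9 basal and 1 of 7 milk protein promoters. The luminal and basal ones with ATAAA are all shown above. Most matched promoters of these lists lacked it, for genes on and off alike.

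Basal and myoepithelial markers were mostly below 1 FPKM. Of 21 markers 7 (33.3%) were above 1 FPKM, against 45.7% of protein-coding rows, and the median was 0.0321 FPKM. The 6 at 0 were the stratified keratins Krt5 (chr15:101537500-101543322, limit 0.0197 FPKM), Krt6a, Krt6b and Krt15, the smooth muscle calponin gene Cnn1 and the stem cell receptor gene Lgr5. Trp63, the master regulator of basal epithelium, had a single read and 0.00245 FPKM. Acta2, smooth muscle actin, had 5 reads and 0.0282 FPKM. Among the members that were on, the laminin receptor subunit Itga6 had 8.97 FPKM (10.3 and 7.67) and its partner Itgb4 3.98 FPKM (4.36 and 3.6). The caveola protein gene Cav1 had 4.14 FPKM (3.93 and 4.35) and the protein C receptor gene Procr 3.59 FPKM (3.09 and 4.09). Nrg1 had 2.42 FPKM (2.95 and 1.88) and Jag2 1.93 FPKM (1.95 and 1.91). Krt14, named after its values were seen, had 1.61 FPKM (1.15 and 2.08), without its usual partner Krt5. Of 11 milk protein genes 8 were at 0, among them the casein gene Csn2 and the whey acidic protein gene Wap. Xdh, an enzyme that also coats milk fat globules, was the one above 1 FPKM, with 2.18 FPKM (2.66 and 1.71).

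Mesenchymal genes were expressed beside the epithelial ones. Of 19 genes 11 were above 1 FPKM and 4 were at 0. Fn1, the matrix protein fibronectin, had 73.4 FPKM (97.0 and 49.9), Vim, the intermediate filament vimentin, 68.1 FPKM (72.9 and 63.3), and Axl, a receptor tyrosine kinase, 56.0 FPKM (65.6 and 46.4). All 3 were higher in the deeper library, the reverse of the keratins. The calcium-binding protein gene S100a4 had 26.0 FPKM (25.5 and 26.4) and Cd44, the hyaluronan receptor, 22.5 FPKM in both libraries. N-cadherin (Cdh2) and cadherin-11 (Cdh11) were at 0, with a limit of 0.00895 FPKM for Cdh2, as were the factors Twist2 and Prrx1. Zeb1, a repressor of E-cadherin, had 14 reads over both libraries and 0.0343 FPKM. Named after their values were seen, its relative Zeb2 had 2.80 FPKM, Snai1 4.31 FPKM (4.58 and 4.05) and Twist1 6.94 FPKM (5.92 and 7.97). Thus vimentin and fibronectin stood at levels like those of Krt8 and Cdh1, while the mesenchymal cadherins were absent at this depth. In junctions 12 of 21 desmosome and tight junction genes were above 1 FPKM, led by F11r, a junctional adhesion molecule, with 29.4 FPKM (26.4 and 32.4) and the scaffold Tjp1 with 15.9 FPKM (18.3 and 13.4).

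**Figure D2:**
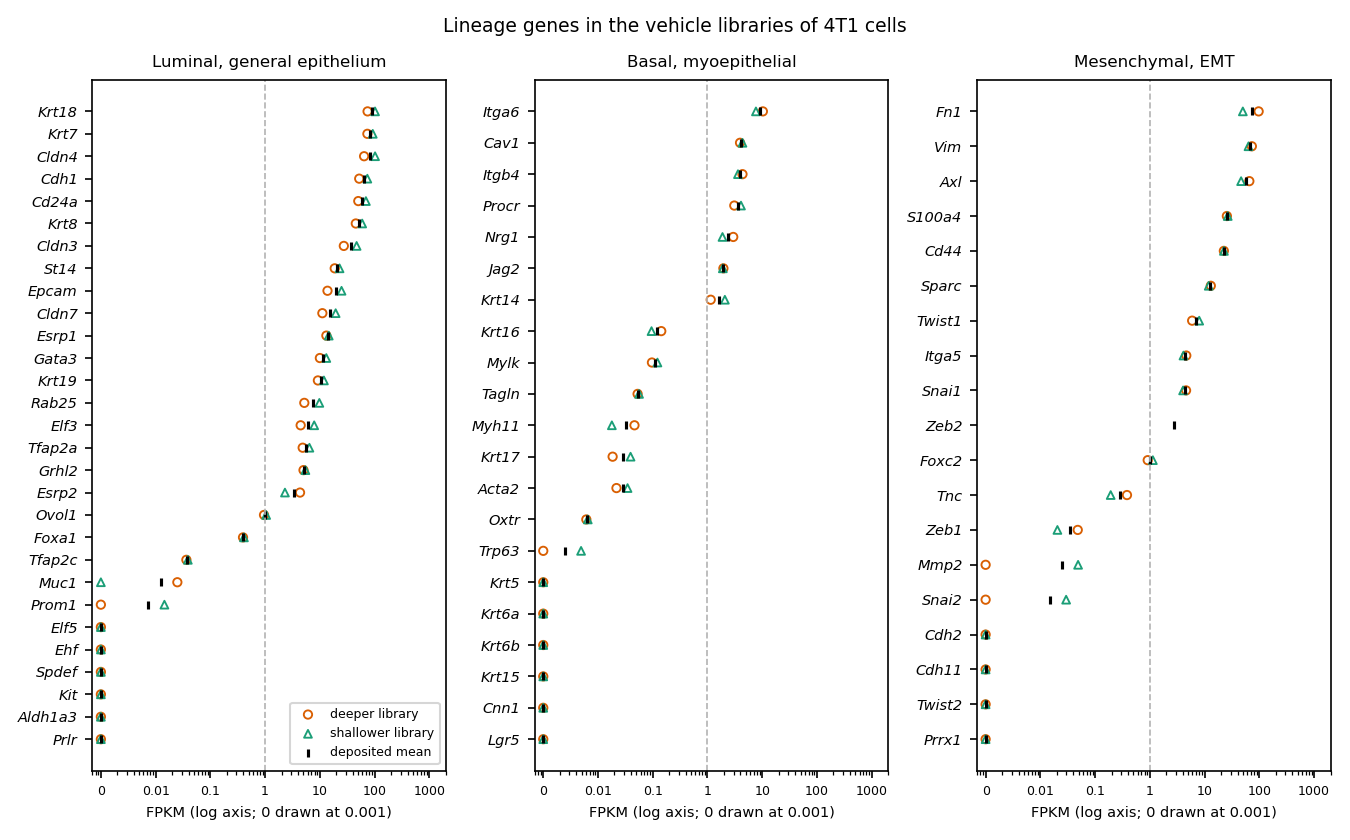
FPKM of epithelial, basal and mesenchymal genes in the vehicle libraries, on a log axis with 0 drawn at its left end. Open symbols are the recovered libraries and black ticks the deposited mean; Krt18 at 88.1 and Vim at 68.1 FPKM stand at the top while Krt5 and Cdh2 are at 0 in both libraries, and a gene with a tick alone (Zeb2) had no recovered library values.

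Markers of other cell types checked the label of a pure line. Of 25 leukocyte markers 19 were at 0, including Ptprc (CD45), Cd3e, Csf1r and Lyz2, with a limit of 0.00850 FPKM for Ptprc. Only Cd68, a lysosomal protein, was above 1 FPKM, with 2.52 FPKM (2.89 and 2.14), and the whole list summed to 3.08 and 2.42 FPKM in the libraries. Of 13 fibroblast markers 8 were at 0, among them Col1a2, Col3a1, Dcn and Pdgfrb. Fbln2, a matrix protein, had 21.6 FPKM (23.4 and 19.7) and made up most of the summed 24.6 and 21.1 FPKM of that list. Col1a1 had 24 reads and 0.0723 FPKM. Of 11 endothelial markers Egfl7 and Flt1 were above 1 FPKM, with 1.67 and 1.13 FPKM, and Cdh5, Kdr and Tek were at 0. The 6 Y-linked rows (Ddx3y, Eif2s3y, Kdm5d, Uty, Zfy1 and Sry) and Tsix were at 0. Xist, the RNA that coats an inactive X chromosome, had 7 reads and 0.00561 FPKM.

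Hormone receptor genes were low. Esr1, the estrogen receptor alpha gene (chr10:5453457-5734552), had 0.891 FPKM (0.890 and 0.891, from 279 and 263 reads) with an interval of 0.817 to 0.969, which lies below 1 FPKM but well above 0. The interval also lies above 0.212 FPKM, which is 1 part in 1 M of the summed level. Esr2 had 6 reads and 0.0255 FPKM. Pgr, the progesterone receptor gene, had no read, with a limit of 0.00628 FPKM. Of 30 steroid and nuclear receptor genes 17 were above 1 FPKM. The highest were Nr1d2, a clock repressor, with 16.4 FPKM (16.5 and 16.3), the oxysterol receptor gene Nr1h2 with 14.5 FPKM (13.3 and 15.8) and Rxrb, a shared dimer partner, with 13.0 FPKM (14.4 and 11.6). Nr3c1, the glucocorticoid receptor gene, had 9.76 FPKM (11.2 and 8.35), above Esr1, Esr2 and Pgr in both libraries.

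Of 43 receptor tyrosine kinase genes 17 (39.5%) were above 1 FPKM, against 45.7% of protein-coding rows, and 14 were at 0. After Axl came Epha2, an ephrin receptor, with 28.6 FPKM (32.5 and 24.8), and Ryk, a Wnt co-receptor, with 25.9 FPKM (24.5 and 27.3). The collagen receptor Ddr2 had 13.2 FPKM (16.1 and 10.2), Ptk7 11.1 FPKM (11.6 and 10.6) and Met, the receptor of hepatocyte growth factor, 8.52 FPKM (9.21 and 7.82), while its ligand gene Hgf was at 0. In the EGF receptor family Erbb2, the mouse HER2 gene (chr11:98273797-98299030), had 3.43 FPKM (3.66 and 3.21). Erbb3 had 0.983 FPKM (1.04 and 0.924), Egfr 0.216 FPKM (0.187 and 0.245, interval 0.185 to 0.247), and Erbb4 no read. The order of these 4 was the same in both libraries and their library values did not overlap. Kit, Kdr, Csf1r, the neurotrophin receptor genes Ntrk2 and Ntrk3, and Pdgfrb were also at 0.

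Of 30 cytokine and interferon receptor genes 14 (46.7%) were above 1 FPKM, near the 45.7% of protein-coding rows. Il6st (gp130, the shared signal chain of the IL-6 family) led with 15.2 FPKM (18.7 and 11.7). Both interferon gamma receptor chains were on, Ifngr2 with 11.1 FPKM (10.2 and 11.9) and Ifngr1 with 9.68 FPKM (8.28 and 11.1). The type I interferon receptor chains were Ifnar2 with 7.12 FPKM (7.48 and 6.75) and Ifnar1 with 4.46 FPKM, whose libraries were not recovered. Csf2ra and Csf3r, receptor genes for GM-CSF and G-CSF, had no read. Of 15 TNF and death receptor genes 8 were on, and Tnfrsf12a, the receptor of TWEAK, was far ahead with 131 FPKM (135 and 126), followed by the lymphotoxin receptor gene Ltbr with 17.9 FPKM (16.7 and 19.1). Of 14 pattern recognition receptor genes Tlr3, Tlr2 and Tlr4 were above 1 FPKM, with 3.58, 2.83 and 1.99 FPKM.

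**Figure D3:**
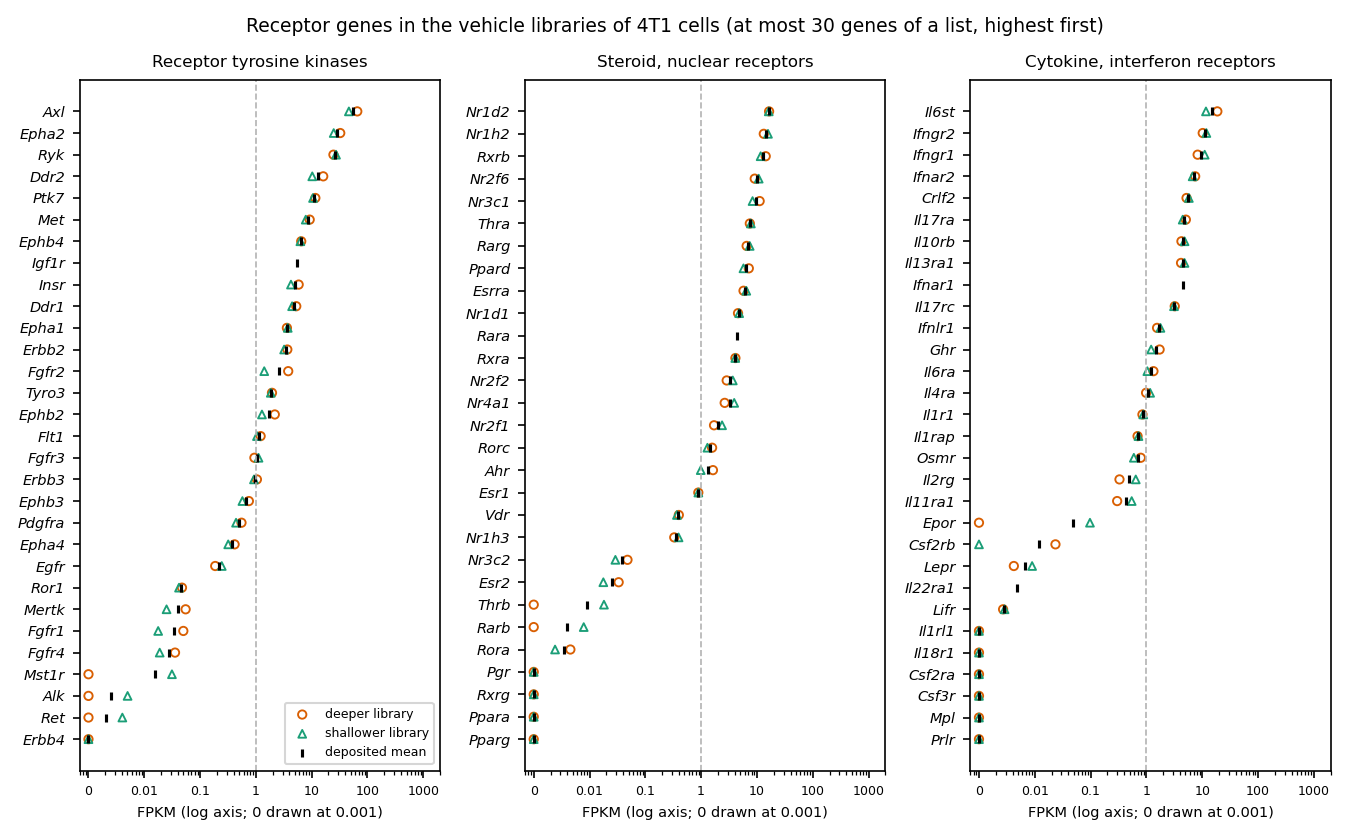
FPKM of receptor tyrosine kinase, nuclear receptor and cytokine receptor genes in the vehicle libraries, on a log axis with 0 drawn at its left end and a dashed line at 1 FPKM. Each row is a gene, at most 30 of a list, with open symbols for recovered libraries and a tick for the deposited mean; Erbb2 lies right of the line at 3.43 FPKM, Esr1 just left of it at 0.891 FPKM, and Pgr at 0.

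Adhesion and morphogen receptors included some of the highest receptor levels. Of 24 integrin genes 9 (37.5%) were above 1 FPKM, against 45.7% of protein-coding rows. Itgb1, the beta chain shared by most matrix-binding integrins, had 132 FPKM (131 and 133), and Itga3, a laminin-binding alpha chain, 55.9 FPKM (61.9 and 49.8). Itgb5 had 18.1 FPKM (16.8 and 19.4) and Itgav 12.3 FPKM (13.4 and 11.2). Of 13 TGF-beta and BMP receptor genes 9 were on, with Bmpr1a at 16.3 FPKM (17 and 15.6) and Tgfbr2 at 12.9 FPKM (13.7 and 12.2). Of 18 Wnt receptor genes 10 were on, led by Fzd6 with 22.1 FPKM (23.0 and 21.1) and the co-receptor Lrp5 with 14 FPKM (14.8 and 13.3). Notch2 was the highest Notch receptor with 5.79 FPKM (6.77 and 4.82), whereas Notch3 and Notch4 were below 0.01 FPKM. G protein-coupled receptors were sparse: 6 of 30 were above 1 FPKM, the thrombin receptor F2r first with 14.6 FPKM (13.5 and 15.7), and the chemokine receptor genes Ccr1, Ccr7 and Cxcr6 were at 0.

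Secreted factors were on in part, with shares to be read against 45.7% of protein-coding rows. Of 33 colony-stimulating factor and interleukin genes 10 were above 1 FPKM. Mif, the macrophage migration inhibitory factor, led with 384 FPKM (307 and 461), and Csf1, which sustains macrophages, had 41.7 FPKM (45.3 and 38.1). Il23a, the p19 subunit of IL-23, had 21.1 FPKM (22.5 and 19.8), while Il12b, which encodes the subunit it pairs with, was at 0. Csf3, the granulocyte factor G-CSF, had 11.8 FPKM (11.2 and 12.3) and Lif 7.81 FPKM (7.64 and 7.98). Il2, Il4, Il10 and Il17a were at 0, and Il6, named after its value was seen, had 1 read and 0.0137 FPKM.

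Of 32 chemokine genes 7 were above 1 FPKM and 17 were at 0. Cxcl16, a membrane-bound chemokine, had 19.2 FPKM (18.8 and 19.7), and the neutrophil attractants Cxcl1 and Cxcl5 had 9.15 FPKM (9.31 and 8.98) and 5.36 FPKM (6.74 and 3.98). Cx3cl1 had 2.19 FPKM (2.06 and 2.32) and Ccl5, a T cell attractant, 2.08 FPKM (2.26 and 1.90). Cxcl12, Ccl3, Ccl4 and Ccl22 were at 0. All 18 interferon ligand rows were at 0 in vehicle, including Ifnb1 (chr4:88167928-88168698), for which 3 reads would have given 0.0577 FPKM, and Ifng, with a limit of 0.0359 FPKM. Interferon alpha genes are near-identical copies, so that reads mapping to several of them may not have been counted.

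Of 41 other growth factor genes 18 were above 1 FPKM. Hdgf, a chromatin-bound and secreted growth factor, had 183 FPKM (162 and 204), Cyr61, a matricellular protein, 57.5 FPKM (62.2 and 52.8), and the progranulin gene Grn 47.0 FPKM (40.5 and 53.4). Bmp1, a protease that trims procollagen, had 17.1 FPKM (17.8 and 16.4) and Vegfb, a VEGF receptor ligand, 15 FPKM (13.4 and 16.7). Of the EGF family 4 of 11 ligand genes were on, with Hbegf at 13.5 FPKM (14.7 and 12.3) and Tgfa at 3.62 FPKM (3.61 and 3.63), so that ligands stood above Egfr itself. Of 26 Wnt ligand and antagonist genes 5 were on: Wls, which escorts Wnt proteins to the surface, had 23.1 FPKM (22.1 and 24.0), Wnt7b 12.9 FPKM and Wnt7a 4.98 FPKM (4.95 and 5.01). The antagonists Dkk1, Dkk2, Sfrp2 and Wif1 were at 0.

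Of 39 matrix glycoprotein and laminin genes 21 were above 1 FPKM. After Lgals1 came Lgals3, another galectin, with 77.8 FPKM (75.8 and 79.9), Igfbp4, which binds insulin-like growth factors, with 75.0 FPKM (76.7 and 73.2), and Fn1. Spp1 (osteopontin) had 47.3 FPKM (43.4 and 51.2) and the laminin chain Lamb1 42.0 FPKM (48.4 and 35.5). Of 32 protease and inhibitor genes 14 were on. The inhibitor Timp2 led with 62.8 FPKM (60.6 and 64.9), ahead of Mmp14, a membrane-anchored collagenase, with 19.6 FPKM (20.9 and 18.4), and of Plaur, the urokinase receptor, with 15.8 FPKM (16.2 and 15.4). Mmp9, a gelatinase named after its values were seen, had 4.10 FPKM (4.01 and 4.18). Mmp7, Mmp8 and Timp4 were at 0. The inhibitor was thus above each listed protease in both libraries.

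**Figure D4:**
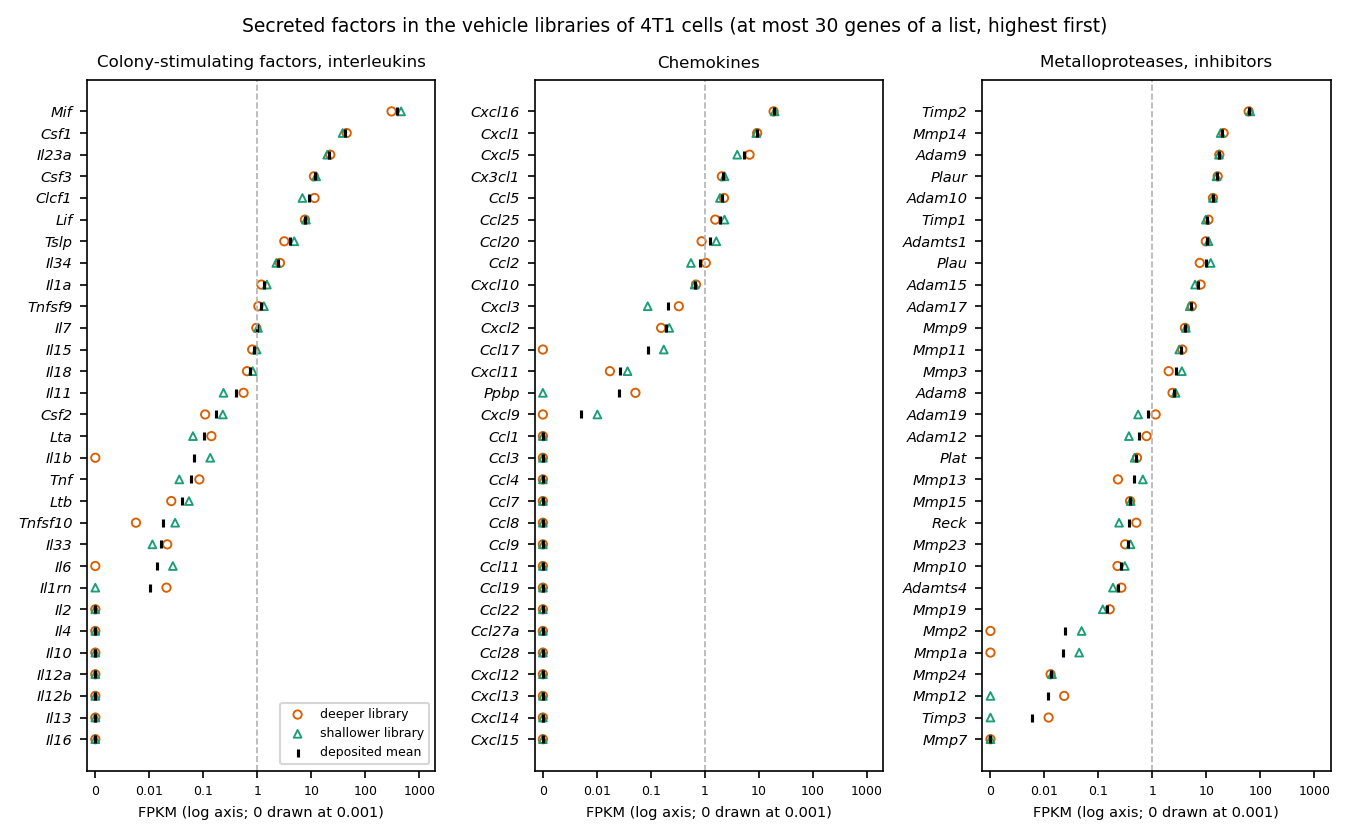
FPKM of secreted factor genes in the vehicle libraries, on a log axis with 0 drawn at its left end. Open symbols are the recovered libraries and ticks the deposited mean; Mif at 384 FPKM stands furthest right among cytokines, Cxcl16 at 19.2 FPKM leads the chemokines, and genes at the left end had no read.

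Signaling genes were on in large part. The Ras, MAPK and PI3K list (35 of 37 above 1 FPKM, median 7.63 FPKM) was led by the kinase Akt1 with 44.4 FPKM (45.2 and 43.6), the GTPase Nras with 29.9 FPKM (32.1 and 27.8) and the adaptor Grb2 with 25.6 FPKM (22.4 and 28.9). In the NF-kB list Nfkbia, the inhibitor that holds NF-kB in the cytoplasm, had 32.8 FPKM (31.3 and 34.3), and the subunit genes Rela, Nfkb2 and Nfkb1 had 23.9, 22.4 and 19.3 FPKM. Of 29 Wnt, Hippo and TGF-beta transducers 25 were on. Ctnnb1, beta-catenin, had 71.1 FPKM (71.8 and 70.4), Yap1 20.6 FPKM (19.6 and 21.6) and Axin1 19.5 FPKM (17.6 and 21.3), whereas Axin2, a common target of beta-catenin, had no read (limit 0.0102 FPKM). The transducers were thus present while this target was not detectable at this depth, and the activity of the pathway was not tested.

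Interferon signaling and nucleic acid sensing genes stood lower by median than the Ras, MAPK and PI3K list. Of 26 JAK-STAT genes 19 were above 1 FPKM, with a median of 2.22 FPKM. Irf1 had 16 FPKM (15 and 17.1), Stat6 11.5 FPKM (12 and 11) and Jak1 11.2 FPKM in both libraries. Stat2, a STAT of the type I interferon response, was named after its values were seen and had 1.26 FPKM (1.33 and 1.20). Of 23 sensing genes 18 were on, with a median of 4.55 FPKM. Zc3hav1, which binds viral RNA, had 15.5 FPKM (15.7 and 15.3) and Samhd1, a dNTP hydrolase, 14.6 FPKM (15.2 and 13.9). Cgas (row Mb21d1), the cytosolic DNA sensor, had 4.27 FPKM (4.19 and 4.34) and Sting1 (row Tmem173), its adaptor, 4.15 FPKM (3.89 and 4.41), and the library ranges of both overlapped.

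Some growth control genes were high, while others had no read. Of 41 oncogenes and tumor suppressors 34 were above 1 FPKM and 4 were at 0. Myc (chr15:61816895-61821916), a growth-promoting transcription factor, had 137 FPKM (128 and 146), and the G1 kinase Cdk4 had 137 FPKM (139 and 134) with its cyclin gene Ccnd1 at 64.5 FPKM (69.6 and 59.3). Trp53 (chr11:69393860-69405375), which encodes p53, had 48.5 FPKM (50.3 and 46.8). Cdkn2a (chr4:88920376-88940523) and Cdkn2b (chr4:88952197-88956941), inhibitors of Cdk4, had no read in vehicle, with limits of 0.0370 and 0.0311 FPKM, and were at 0 in all 4 groups. The gene beside them, Mtap (chr4:88783273-88826994), was looked up after those values were seen and had 102 FPKM (99.1 and 104). On the other side Dmrta1 (chr4:89354888-89361457) was at 0.

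Of 36 BCL2 family and caspase genes 25 were on, with the pore-forming Bax at 33.5 FPKM (33.2 and 33.8), Bak1 at 26.0 FPKM (23.4 and 28.6) and the survival factor Mcl1 at 27.1 FPKM (24.1 and 30.1). Ripk3, a kinase of necroptosis, had no read (limit 0.0220 FPKM), while Mlkl, its substrate, named after its values were seen, had 9.58 FPKM (10.1 and 9.11). Of 30 checkpoint and immune surface genes 13 were above 1 FPKM. Hmgb1, a nuclear protein that can be released as a danger signal, had 123 FPKM (102 and 145), the chaperone Calr 89.4 FPKM (79.2 and 99.5), Cd47, a signal against phagocytosis, 27.8 FPKM (28.6 and 26.9) and Nt5e, which makes adenosine, 20.4 FPKM (21.8 and 19). Cd274 (PD-L1, chr19:29441927-29462584) had 1.00 FPKM (0.930 and 1.07) with an interval of 0.878 to 1.13, so it could not be placed on either side of 1 FPKM. The costimulator genes Cd80 and Cd86 and the ligand genes Pdcd1lg2 and Vtcn1 were at 0.

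Genes that handle the drug of the study and its adducts were mixed in the untreated cells. Of 50 aldehyde dehydrogenase, glutathione and P450 genes 26 were above 1 FPKM and 11 were at 0. Aldh2, the mitochondrial aldehyde dehydrogenase, had 58.5 FPKM (56.4 and 60.6), whereas Aldh1a1, which can oxidize the aldehyde form of activated cyclophosphamide, had no read (limit 0.0138 FPKM), as had Aldh1a2, Aldh1a3 and Aldh1a7. Aldh3a1, another such enzyme, named after its values were seen, had 0.644 FPKM (0.583 and 0.705). The glutathione peroxidases Gpx4 and Gpx1 had 94.0 FPKM (80.9 and 107) and 90.0 FPKM (81.9 and 98.1), and the glutathione transferase gene Gstp1 53.1 FPKM (55.9 and 50.2), which has a close copy and is uncertain. Cyp2b10 and Cyp3a11, whose products activate the parent drug in liver, were at 0.

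Of 32 crosslink and alkyl damage repair genes 25 were above 1 FPKM. Ercc1, a nuclease subunit, had 14.2 FPKM (15.3 and 13.1), and Alkbh3 and Alkbh2, which remove alkyl groups from DNA, had 11.1 FPKM (11.1 and 11.2) and 10.2 FPKM (10.5 and 9.99). Mgmt, which removes alkyl groups from guanine, had no read (limit 0.0150 FPKM) and was at 0 in all 4 groups. Of 21 transporter genes 14 were on, led by the amino acid carriers Slc3a2 with 66.2 FPKM (63.7 and 68.8), Slc38a2 with 51.1 FPKM (50.8 and 51.5) and Slc7a5 with 37.0 FPKM (37.8 and 36.2). The lactate carrier Slc16a1 had 30.7 FPKM (26.4 and 35.0), while its relative Slc16a3 was at 0 in all 4 groups. Abcc2, an efflux pump, was also at 0.

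Housekeeping genes covered a wide range of levels. The 20 common reference genes had a median of 199 FPKM, from Rplp0 through Gapdh, the glycolytic dehydrogenase, with 634 FPKM (584 and 684), and Actb, beta-actin, with 508 FPKM (411 and 604), to Gusb, a lysosomal enzyme named after its values were seen, with 8 FPKM (8.29 and 7.71). In glycolysis 20 of 30 genes were on, with Eno1 at 402 FPKM (407 and 398), Pkm at 341 FPKM (335 and 347) and Ldha at 214 FPKM (195 and 233), while the tissue-restricted relatives Pklr and Ldhc were at 0. Of 38 cytoskeleton genes 32 were on, and after Actb came the actin-severing Cfl1 with 335 FPKM (281 and 388) and Actg1 with 330.4 FPKM (288 and 373). The smooth muscle light chain gene Myl9 was at 0. Of 41 translation factor and chaperone genes 38 were on, with a median of 236 FPKM, whereas Eef1a2, the muscle and neuron form of Eef1a1, was at 0 in vehicle.

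All 25 proliferation genes were above 1 FPKM, with a median of 10.4 FPKM in vehicle. That was the lowest median of the 4 groups, against 34.6 FPKM after 4HC, 33.6 FPKM with antibody added and 21.6 FPKM after IFNβ. Pcna, the sliding clamp of DNA replication, had 135 FPKM (105 and 165), and the helicase subunits Mcm6, Mcm3 and Mcm5 had 42.2 FPKM (37.8 and 46.6), 38.2 FPKM in both libraries and 36.1 FPKM (33.1 and 39.0). Mki67, which encodes the Ki-67 antigen, was named after its values were seen and had 4.03 FPKM (4.46 and 3.59), below each of those replication genes in both libraries. In the long noncoding RNA list 9 of 17 were on, with Snhg1 at 227 FPKM (234 and 219), Gas5 at 84.4 FPKM (96.2 and 72.5) and Malat1 at 67.2 FPKM (74.8 and 59.6). Hotair and Meg3 were at 0. Snhg1 and Gas5 host small nucleolar RNAs in their introns.

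The vehicle libraries agreed across genes within moderate bounds. Over 9241 rows with 200 reads or more the SD of the log2 ratio of libraries was 0.38, and Pearson's r of the log2 levels was 0.982, a description across genes that are not independent. For these rows the recovery of reads allowed library ratios from 0.25 to 4 only, so a wider difference could not be returned. The ratio passed 1.5-fold in 1051 rows (11.4%) and 2-fold in 126 (1.36%), of which 108 were higher in the deeper library and 18 in the shallower one. The ratio moved with gene length. The median log2 ratio of the deeper over the shallower library was -0.33 in 506 rows up to 1000 bases, -0.03 in 3593 rows of 2000 to 4000 bases and 0.45 in 555 rows over 8000 bases. The part of RNA quality or library preparation in this slope was not tested. Single genes also lay on the other side of their length class: Krt7, with 4758 bases, was higher in the shallower library and Vim, with 1834 bases, in the deeper one.

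**Figure D5:**
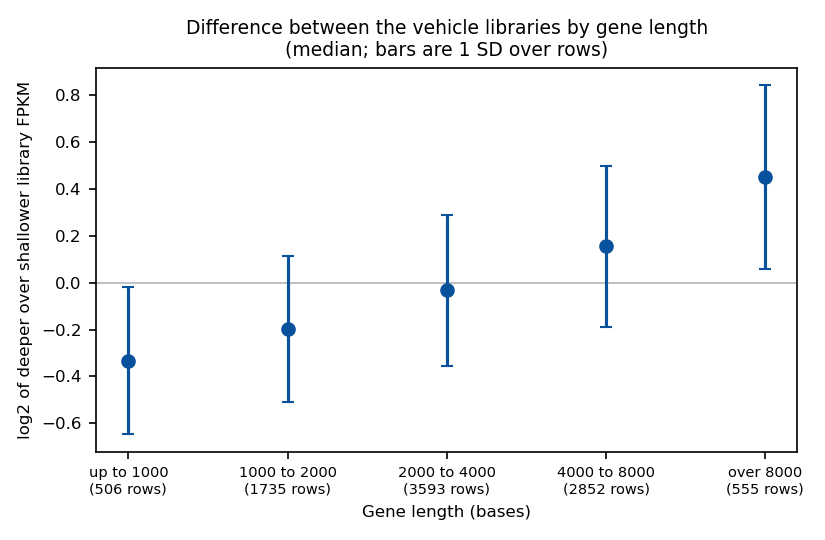
Ratio of the deeper over the shallower vehicle library (log2) against gene length in bases, for rows with 200 reads or more. Points are medians over rows and bars 1 SD over rows. The median goes from -0.33 in the shortest class to 0.45 in the longest.

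Vehicle levels were set beside the means of the treated groups, which share no library with vehicle, with no test since treated libraries were not resolved. Vehicle was collected at 72 h, but the IFNβ group 2 h after a 4 h exposure. The methods of the study also give more cells seeded per well for IFNβ than for 4HC treatment. Differences of the IFNβ group from vehicle therefore cannot be told apart from these differences in culture. Of 599 list members above 1 FPKM in vehicle, 227 (37.9%) had a highest group mean over 2-fold above the lowest, against 2145 of 9482 rows (22.6%) over the table, both with 0.1 FPKM added. The lists were picked with the treatments known, so their higher share is no independent result. Most of the matrix list lay past 2-fold, 17 of 21, as did 13 of 18 sensing genes, 14 of 25 proliferation genes and 6 of 7 chemokines. Among luminal markers 4 of 18 and among reference genes 3 of 20 did.

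Vim had 68.1 FPKM in vehicle, 359.5 after 4HC, 360.2 when antibody was added to it and 84.8 after IFNβ. Cdh1 lay much closer across the same groups, with 63.0, 50.5, 49.1 and 71.4 FPKM. Cxcl1 had 9.15, 159, 193 and 3.52 FPKM. Cd274 had 1.00, 1.71, 1.14 and 4.39 FPKM, highest with IFNβ. Myc had its highest mean in vehicle, with 137 FPKM against 79.3, 69.9 and 68.6 FPKM, and both vehicle libraries lay above the treated means. Itgb1, at 132, 116, 115 and 114 FPKM, and Gapdh, at 634, 733, 733 and 708 FPKM, stayed within 1.5-fold. Actb did not, with 508, 542, 521 and 1219.6 FPKM.

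Promoter sequence was compared with level over 16070 of 20088 protein-coding genes, rows under a shared current name being counted once, that were matched to RefSeq promoters (GRCm38.p6, from 250 bases before to 50 after the start). This is 79.998%, under the 80% needed for a statement on all rows, so the check is void for the whole table and the values describe the matched rows alone, which are not independent replicates. The ratio of observed to expected CpG had a median of 0.223 in 5680 promoters of rows at 0, 0.513 above 0 to 1 FPKM, 0.782 from 1 to 10 FPKM, 0.840 from 10 to 100 FPKM and 0.875 in 219 promoters above 100 FPKM. GGGCGG on either strand stood in 22% of promoters at 0, in 70.6% from 10 to 100 FPKM and in 62.1% above 100 FPKM, against 48.8% of all. CCGGAAG on either strand was in 2.80% at 0 and 28.8% above 100 FPKM, against 12.4% of all. TATAAA between 40 and 15 bases before the start was in 5.39% at 0, 0.801% from 1 to 10 FPKM and 3.20% above 100 FPKM, against 2.81% of all. The 7 matched genes above 100 FPKM with it were Ppia, H3f3b, H2-D1, Anxa1, Stip1, Fscn1 and Prdx1, between 100.03 and 846 FPKM.

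Only 18 of 29 luminal markers (62.1%) had a matched promoter, so no statement can be made on the list. Among the 11 of them above 1 FPKM the CpG ratio ran from 0.238 to 0.710 with a median of 0.454, against 0.928 in 15 reference genes and 0.239 in 18 leukocyte markers up to 1 FPKM. Krt8 had 0.238, Krt18 0.603 and Krt7 0.641. These medians rest on few genes and were not tested.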

How the data were processed

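RNA of 11 cultures was sequenced from poly(A)-selected, strand-specific libraries. Per the labels, reads were mapped to mm9 with TopHat2, counted per gene with featureCounts and compared with edgeR, with versions and strand setting of the counting not given in the sources used here. The deposited table gives the authors' mean FPKM of each group. Its ratio, fold change and p-value columns hold the authors' own comparisons and were not used.

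The members, gene lists and thresholds were chosen with earlier results of these data known. A row was called expressed above 1 FPKM. Named genes were the 25 highest rows, up to 6 highest members of a list with its defining members at 0 or under 0.1 FPKM, and Esr1, Esr2, Pgr, Erbb2, Egfr, Erbb3, Trp53, Cdkn2a, Ifnar1, Ifnar2, Cgas, Sting1, Cd274 and Xist; other names were chosen after their values were seen, and some genes that the rule selects are not reported here.

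A deposited mean was solved as whole reads in 2 libraries divided by length and library total. The totals came from 5 genes with 1 read, and explained 16 of 16 intronless receptor genes. Solved rows held 44.4% and 46.4% of the totals, so what else the totals count is unknown. It scales all FPKM of a library alike, but may differ between the libraries. With wrong totals 22 of 1000 rows (2.2%) still gave a solution. On vehicle data simulated from solved rows with the same totals and the same rule, 1929 of 1948 genes were solved, all rightly. This does not cover rows that depart from the rule. No test between groups was run. Coordinates are the table's own (mm9) and span exons, introns and UTRs; promoters are from RefSeq (GRCm38.p6). 24061 rows matched a reference gene name, 27 had names turned into dates, and 1 list member (Rn7sk) had no row. Python 3.11.15, numpy 2.4.6, pandas 2.3.3, scipy 1.17.1 and numba 0.67.0 were used.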

Additional observations from a re-analysis of the deposited data

How the results depend on the processing

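The number of expressed rows was 9815 above 1 FPKM. It was 5933 above 5 FPKM, and lay between 9468 and 12154 when the limit was 0.5 or 0.1 FPKM, when FPKM were rescaled to a sum of 1 M, or when small RNA and date-like rows were left out. List members above 1 FPKM numbered 599, and 393 above 5 FPKM, 654 above 0.5 FPKM and 708 after rescaling. Leaving out 1 vehicle library, chosen after seeing the data except for the lists, gave 9370 to 9546 expressed rows (9499 over the same rows), 32.4% to 33.5% of FPKM in the 100 highest rows, 584 to 588 list members (585 over the same rows) and 240 to 241 members past 2-fold between groups (227 with the mean). With a pseudocount of 0.01 or 1 FPKM those members numbered 232 and 180. Of 288 counts for single lists, 36 moved by over 1.5 times, 26 of them at 5 FPKM and none without a library. Taken over members above 0 only, 37 of 47 list medians moved by more than 1 SD between the libraries, to 11.6 FPKM for luminal, 0.119 FPKM for basal and 3.05 FPKM for JAK-STAT genes, while the other medians printed above moved by less. In 4 equal bins of rows above 0, GGGCGG stood in 70.1% of promoters in the highest bin, against 62.1% above 100 FPKM. No paired analysis was possible because the table gives group means and the recovered libraries carry no replicate number. Depth limits 1400 rows with 1 to 3 reads over both libraries, and 512 rows were above 1 FPKM in only 1 library.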

Other observations

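Outside the lists, the Hox genes, which encode positional identity along the body axis, were on from a single cluster, a set chosen after its values were seen. Of 39 Hox rows 7 were above 1 FPKM and 24 were at 0. Those above 1 FPKM included Hoxa5 with 21.3 FPKM (16.1 in the deeper and 26.5 in the shallower vehicle library), Hoxa10 with 3.30, Hoxa7 with 3.28, Hoxa6 with 3.20, Hoxa3 with 3.17 and Hoxa2 with 2.27 FPKM. They lie between 52112415 and 52184938 on chromosome 6 (mm9), where genes overlap and reads of neighbors may be shared. No Hoxb, Hoxc or Hoxd row was above 1 FPKM, and the highest of them was Hoxd4 with 0.241 FPKM. In other families 7 of 52 keratin rows and 4 of 23 claudin rows were above 1 FPKM, with Krt80 at 4.71 FPKM (4.82 and 4.61) and Krt10 at 1.51 FPKM (1.14 and 1.89) besides those named in the report. Of 1122 olfactory receptor rows 1 was above 1 FPKM, and of 330 vomeronasal receptor rows none.

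The values in this paragraph were likewise chosen after they were seen. By chromosome, the share of protein-coding rows above 1 FPKM ran from 30.4% on X and 35.5% on chromosome 7 to 53.7% on chromosome 8, and was 0 of 19 on Y. Among the higher genes, the rows furthest apart between the vehicle libraries included Txnip, a regulator of glucose uptake, and the invariant chain gene Cd74. Txnip had 39.2 FPKM in the deeper and 105 FPKM in the shallower library, and Cd74 11.6 and 25.2 FPKM. The nuclear RNA Neat1 also came out far apart, but its solved length of 20792 bases exceeds its listed span (chr19:5842301-5845478). Its library values are therefore not reliable. In the other direction stood Fgfr2 with 3.80 and 1.41 FPKM and the ubiquitin ligase gene Cbl with 5.23 and 1.88 FPKM. The small RNA row Mir5121 had 3183 FPKM and Mir3064 858 FPKM; such short rows can lie inside longer genes, whose reads they then share, and poly(A) libraries do not measure mature microRNAs. Hspa1a, an inducible chaperone gene, had 3 reads while its near-identical neighbor Hspa1b had 3.90 FPKM (2.70 and 5.11), and reads common to both may not have been counted.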
